A study of Arabidopsis thaliana with 9 samples.

Results

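Cyclins are the regulatory partners of cyclin-dependent kinases (CDKs), the enzymes that drive a plant cell from one phase of its division cycle to the next. D-type cyclins respond to hormones and sugar and open the way into DNA synthesis by releasing the brake of the retinoblastoma-related protein. A-type cyclins act mainly in S phase and B-type cyclins at mitosis, with CDKA present throughout and the plant-specific CDKB kinases made around mitosis. KRP and SIAMESE-related (SMR) proteins inhibit these complexes, CKS proteins dock onto the kinases, and cyclins C, H, L and T pair with kinases that act on transcription or splicing instead. Callus on shoot induction medium holds dividing cells beside differentiating ones, so many of these genes are active in it.

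The genes described here are the 89 protein-coding loci, of 32833 genes in the deposited table, whose description begins with cyclin or putative cyclin. They comprise 7 A-type, 10 B-type and 9 D-type cyclins, 11 kinases, 24 inhibitors and kinase subunits, and 28 other cyclins and related proteins. Names are given as the files spell them (CYCD3-1 but CYCD3;2). Because the choice rests on the description, 12 genes named as cyclins, CDKs or their inhibitors are left out of the 89, among them CDKB2-1, CYCD3-3 and KRP3, and these are reported separately. A filter on low counts left 75 of the 89 for testing: 6 A-type, 8 B-type, 8 D-type, 11 kinases, 21 inhibitors and subunits and 21 others.

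Messenger RNA was sequenced from callus of Arabidopsis thaliana ecotype Col-0 in 3 genotypes, wild type, a pnet1 knockout (the mutant) and a line overexpressing PNET1, with 3 libraries each. PNET1 resides in the membranes that surround the plant nucleus. All groups were untreated and had the same culture, with pieces of etiolated hypocotyl kept for 4 days on callus induction medium and then for 10 days on shoot induction medium. The column names of the mutant read as the allele pnet1-1, which the labels do not spell out. No source used here gives the nature of that allele, the promoter of the overexpression construct or the number of independent lines. The labels also do not say whether replicates are separate cultures, so the spread behind each p-value is that between libraries and may be technical.

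Counts assigned to genes totalled 16890848 to 19493969 per library. PNET1 (AT1G07970, matched from background knowledge) followed the labels, at 28.9 to 32.7 CPM, counts scaled to the total of each library, in wild type, 1.12 to 1.54 in the mutant and 4590 to 5215 in the overexpression line. On the first principal component, with 67.7% of the variance, wild-type replicate 3 and overexpression replicate 1 lay nearest to the mutant within their groups. Of markers for organs that callus can form, the shoot meristem genes CLV3, STM and WUS averaged 3.41, 3.41 and 0.756 FPKM in wild type. FPKM is the authors' unit of fragments scaled for gene length and library size. Among the root meristem markers PLT1 had no count in wild type. The other root meristem markers, SHR and SCR, each had a higher mean FPKM in wild type than CLV3, STM and WUS. Levels below are in FPKM, since they divide by gene length and can be set side by side between genes. Fold changes and adjusted p-values are from edgeR's quasi-likelihood test over all 19698 genes tested, and a gene was called where its Benjamini-Hochberg adjusted p was under 0.05.

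The promoters of 3 B-type cyclins and of an inhibitor are shown first, because the number of copies of 1 motif in them differs between members that are compared below. The mitosis-specific activator (MSA) element is the site that MYB3R transcription factors bind in promoters of mitotic genes, and its core letters are AACGG. Each line holds the 250 bases before and the first 50 bases of the annotated gene in RefSeq's TAIR10 sequence, written in the direction of the gene, with every core in capitals (AACGG, or CCGTT where it lies on the other strand). The promoter of CYCB1-1 lies on the minus strand at chr4:17624259-17624558, that of CYCB1-2 on the minus strand at chr5:1861654-1861953, that of CYCB1;5 on the plus strand at chr1:12594860-12595159 and that of KRP1 on the minus strand at chr2:9978041-9978340.
CYCB1-1: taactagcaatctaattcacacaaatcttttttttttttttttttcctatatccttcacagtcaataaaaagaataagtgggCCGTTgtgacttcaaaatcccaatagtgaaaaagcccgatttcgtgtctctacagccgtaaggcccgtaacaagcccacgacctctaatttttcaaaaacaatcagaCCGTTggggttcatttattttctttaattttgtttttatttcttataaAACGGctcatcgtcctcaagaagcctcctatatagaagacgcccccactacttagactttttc
CYCB1-2: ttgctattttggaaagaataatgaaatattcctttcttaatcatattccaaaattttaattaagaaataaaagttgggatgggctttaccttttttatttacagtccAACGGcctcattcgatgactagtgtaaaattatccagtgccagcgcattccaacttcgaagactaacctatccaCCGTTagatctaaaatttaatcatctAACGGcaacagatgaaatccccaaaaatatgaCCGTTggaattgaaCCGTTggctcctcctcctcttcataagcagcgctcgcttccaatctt
CYCB1;5: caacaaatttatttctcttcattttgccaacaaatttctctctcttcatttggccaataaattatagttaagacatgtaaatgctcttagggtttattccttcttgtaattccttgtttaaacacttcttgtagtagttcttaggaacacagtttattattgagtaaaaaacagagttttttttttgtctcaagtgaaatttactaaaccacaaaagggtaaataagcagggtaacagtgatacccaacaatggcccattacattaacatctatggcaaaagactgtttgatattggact
KRP1: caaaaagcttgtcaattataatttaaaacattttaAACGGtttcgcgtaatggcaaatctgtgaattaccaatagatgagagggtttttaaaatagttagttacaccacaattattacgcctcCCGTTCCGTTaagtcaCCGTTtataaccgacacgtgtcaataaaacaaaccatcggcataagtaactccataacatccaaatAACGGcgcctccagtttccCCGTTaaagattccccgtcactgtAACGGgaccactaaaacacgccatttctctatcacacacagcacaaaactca

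CYCB1-1 held 3 cores, CYCB1-2 held 5, KRP1 held 7 and CYCB1;5 held 0. Over all 27413 protein-coding promoters of this length, 24.7% held at least 1 core on either strand and 1.1% held 3 or more. Among the 10 B-type cyclins 6 held the core, and each of the 6 held at least 3: CYCB1-1, CYCB1-2, CYCB1-3, CYCB2-1, CYCB2-2 and CYCB2-3. The inhibitors KRP1, KRP2 and KRP7 were the other members with 3 or more, so that 9 of 89 promoters (10.1%) reached this number. At least 1 core was in 11 of 24 promoters of inhibitors and subunits, 2 of 7 A-type, 3 of 11 kinase and 7 of 28 other promoters, and in 1 of 9 D-type promoters, that of CYCD3-1. The sites bound by E2F factors in S-phase genes, searched as TTTCCCGC and TTTGGCGC on both strands, were in 1.2% of all promoters and in 2 of the 89, those of SMR6 and SMR7. Cores cannot overlap each other, whereas the E2F sites can overlap each other or a core, and overlaps were not removed. A match describes the letters and not binding.

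Most cyclins and CDKs were not called against wild type. In the mutant 14 of the 75 tested members were called against wild type (18.7%, where 30.0% of all tested genes were called), 5 higher (12.6% of all genes) and 9 lower (17.4% of all genes). In the overexpression line 5 were called (6.67%, where 11.2% of all tested genes were called), 4 higher (5.97% of all genes) and 1 lower (5.24% of all genes). None of these 19 calls reached 2-fold. Between the 2 lines, overexpression against mutant, 29 were called (38.7%, where 43.5% of all tested genes were called), 17 higher (23.0% of all genes) and 12 lower (20.6% of all genes). The median log2 fold change over the tested members was -0.02 in the mutant, 0.04 in the overexpression line and 0.00 between the lines, beside 0.00, 0.00 and -0.02 over all genes. The 3 comparisons share libraries, so their counts are not independent of each other.

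With GC content and gene length corrected for by an offset, which re-centres each library and moves the median of all genes to 0.08 in the mutant, -0.03 in the overexpression line and -0.12 between the lines, the same counts were 13 higher and 7 lower in the mutant, 2 and 3 in overexpression callus and 11 and 21 between the lines. No call turned its direction under any setting, but the balance of rises and falls thus turned with this offset. It did not turn with RLE scaling, upper-quartile scaling or library totals. With these, 40.0%, 35.7% and 42.9% of the member calls in the mutant were higher, beside 35.7% in the main fit. Between the lines the share was 58.6% in each, and in the overexpression line it was 80.0% to 83.3%. The 5 calls of the overexpression line rested on single libraries. Without wild-type replicate 3 edgeR called 0 members, with 12 at an unadjusted p under 0.05, without overexpression replicate 3 it called 1, without wild-type replicate 2 it called 2, and without overexpression replicate 2 it called 3, while DESeq2 with all libraries called 4.

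**Figure D1:**
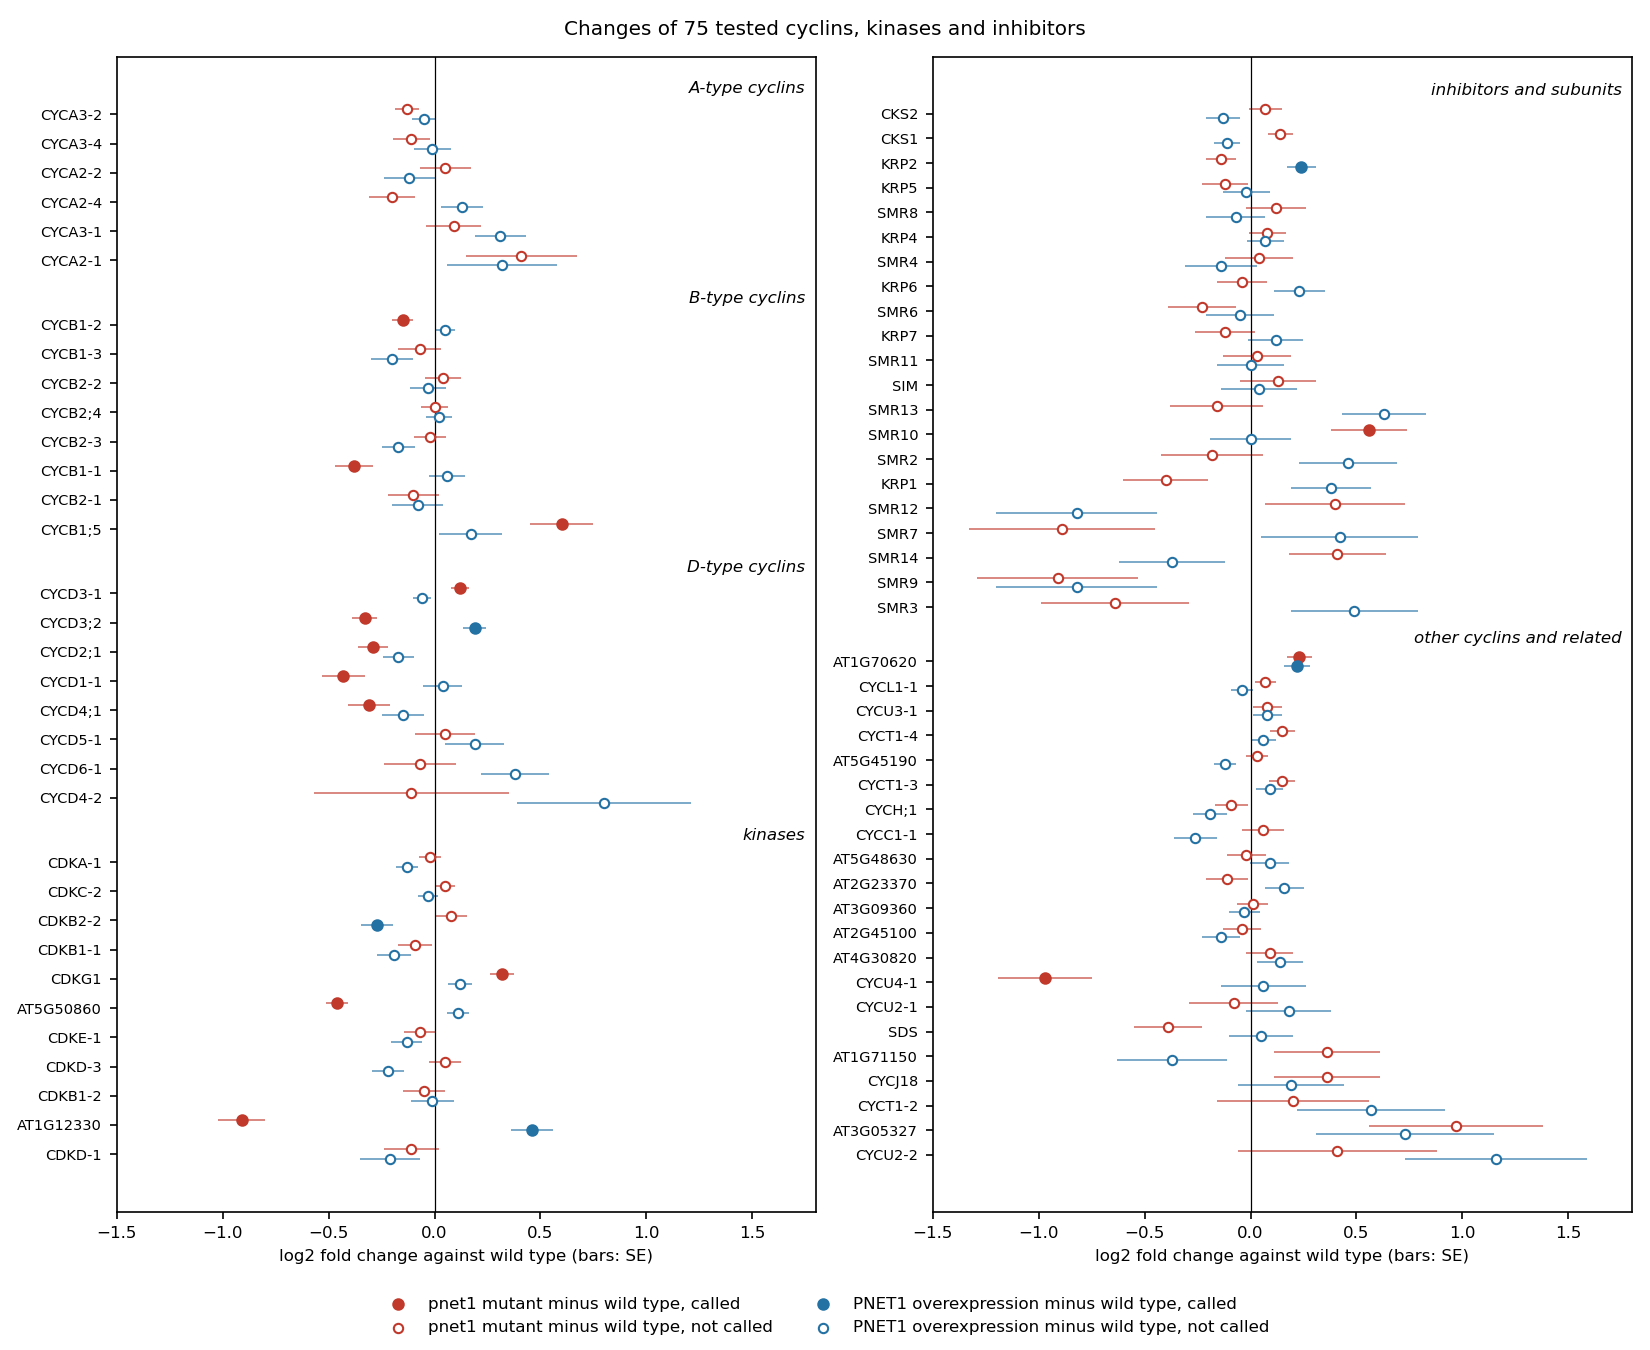
Log2 fold change against wild type of the 75 tested members by class (x axis; bars are SE), in the pnet1 mutant (red) and the PNET1 overexpression line (blue), with filled points for adjusted p under 0.05. Most points lie within 0.5 of 0 (67 of 75 in the mutant, 68 of 75 in the overexpression line). Of the 8 D-type cyclins 4 are called lower in the mutant (50.0%, beside 17.4% of all tested genes).

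D-type cyclins were called in 5 of 8 cases in the mutant (62.5%, beside 30.0% of all tested genes), 4 lower and 1 higher. The lower genes were CYCD1-1, CYCD3;2, CYCD4;1 and CYCD2;1, and the higher one was CYCD3-1, the cytokinin-responsive D cyclin and the most abundant of the cyclins measured. The class median was -0.20 in the mutant, 0.12 in the overexpression line and 0.31 between the lines. In the overexpression line 1 of 8 was called (12.5%, beside 11.2% of all tested genes), CYCD3;2, which rose. Between the lines 3 were higher and 1 lower, a share of 50.0% beside 43.5% of all tested genes.

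CYCD3;2, a close relative of CYCD3-1 with a role in leaf cell proliferation, was at 29.8, 31.4 and 28.5 FPKM in wild type, 23.7, 24.9 and 23.3 in the mutant and 33.8, 36.0 and 33.0 in the overexpression line. The 3 genotypes did not overlap, with the mutant lowest and the overexpression line highest. It fell by 0.33 on the log2 scale in the mutant (SE 0.06, edgeR adjusted p = 3.3e-04) and was 0.19 higher with PNET1 overexpressed (SE 0.06, edgeR adjusted p = 0.037). The rise missed the threshold with DESeq2 (adjusted p = 0.063), with the offset (0.068), in a fit of the 2 groups alone (0.070), and without overexpression replicate 2, wild-type replicate 1 or 3 or mutant replicate 1 or 3 (edgeR adjusted p = 0.052 to 0.18). Between the lines the difference was 0.51, or 1.43-fold (SE 0.06, edgeR adjusted p = 1.0e-06).

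CYCD3-1 was at 77.4, 75.5 and 74.5 FPKM in wild type, 82.9, 83.0 and 83.2 in the mutant and 69.7, 75.2 and 74.0 in the overexpression line. Every mutant library lay above every other library, and the overexpression line overlapped wild type. The rise in the mutant was 0.12 in log2 units (SE 0.04, edgeR adjusted p = 0.030), a 1.09-fold change that missed the threshold with no filter on low counts (edgeR adjusted p = 0.058) and without any 1 mutant library or wild-type replicate 2 or 3 (0.066 to 0.099). Between the lines it was lower in the overexpression line by 0.19 (edgeR adjusted p = 0.0011).

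The 2 genes of the CYCD3 pair were called in opposite directions in the mutant. The FPKM of CYCD3-1 divided by that of CYCD3;2, a ratio within each library that no scaling between libraries touches, was 2.40 to 2.61 in wild type, 3.33 to 3.58 in the mutant and 2.06 to 2.25 in the overexpression line. CYCD3-1 made up 51.7% ± 1.07 of the summed FPKM of the 9 D-type cyclins in wild type, 59.0% ± 0.185 in mutant callus and 49.6% ± 0.260 in overexpression callus (SD, n = 3). The third gene of this subfamily, CYCD3-3, is outside the 89 because its description does not begin with cyclin. Its level was 16.8 FPKM in wild type, 15.9 in mutant callus and 20.9 in overexpression callus, where it was called higher by 0.31 (edgeR adjusted p = 0.017; 0.063 to 0.10 without overexpression replicate 2 or 3 or wild-type replicate 3), with -0.09 in the mutant (edgeR adjusted p = 0.44).

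CYCD1-1 was at 8.28, 8.35 and 7.45 FPKM in wild type, 6.15, 6.43 and 5.33 in the mutant and 8.04, 7.54 and 9.37 in the overexpression line. The mutant libraries were below all 6 others. The log2 fold change was -0.43 in the mutant (SE 0.10, edgeR adjusted p = 0.0022), 0.04 in overexpression callus (edgeR adjusted p = 0.81) and 0.48 between the lines (edgeR adjusted p = 5.1e-04).

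CYCD2;1, a D cyclin tied to sugar supply, was at 19.0, 22.0 and 19.4 FPKM in wild type, 16.3, 16.1 and 17.2 in the mutant and 16.5, 18.9 and 18.5 in the overexpression line. Both lines lay below wild type in every library. The fall passed in the mutant (-0.29, SE 0.07, edgeR adjusted p = 0.0052), and the value of the overexpression line was -0.17 (edgeR adjusted p = 0.13). The difference between the lines did not pass either (0.12, edgeR adjusted p = 0.21).

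CYCD4;1, which takes part in forming the stomatal lineage of the hypocotyl, was at 7.65, 5.69 and 6.89 FPKM in wild type, 5.69, 5.47 and 5.25 in the mutant and 6.17, 6.04 and 6.16 in the overexpression line. Wild-type replicate 2 and mutant replicate 1 were level, and the other wild-type libraries were above both lines. Its fall of 0.31 (SE 0.10, edgeR adjusted p = 0.030) missed the threshold with DESeq2 (0.079), with the GC and length offset (0.12) and without any 1 of the 3 mutant libraries or of wild-type replicates 1 and 3 (edgeR adjusted p = 0.055 to 0.17).

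CYCD6-1, a target of the SHORT-ROOT and SCARECROW factors in the root, was called between the lines alone, at 2.11, 2.69 and 2.23 FPKM in wild type, 2.26, 2.05 and 2.38 in the mutant and 2.66, 3.13 and 3.39 in the overexpression line. The lines did not overlap, and the difference was 0.45 in log2 units (SE 0.16, edgeR adjusted p = 0.030). The call ended with DESeq2 (adjusted p = 0.082), with the offset (0.11) and without overexpression replicate 2 or 3 or mutant replicate 1 or 2 (edgeR adjusted p = 0.065 to 0.12). The transcripts of its 2 regulators moved in opposite directions between the lines, SHR by -0.88 and SCR by 1.48. CYCD6-1 shares 847 bases with a gene on the other strand that had 2535 to 3122 counts per library. The libraries are strand-specific per the labels, but no source used here gives the strand setting of the counting.

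The other 2 tested D cyclins, CYCD5-1 and CYCD4-2, had log2 fold changes of 0.05 and -0.11 in the mutant and 0.19 and 0.80 in the overexpression line, none of which passed. CYCD4-2 rested on 3 to 23 counts per library. Summed over the class, D-type FPKM was 146.5 ± 3.25 in wild type, 140.7 ± 0.466 in mutant callus and 147.1 ± 5.12 in overexpression callus. Without CYCD3-1, a split made after its value was seen, the sums were 70.7 ± 2.84, 57.7 ± 0.433 and 74.1 ± 2.25 (SD, n = 3), and all mutant sums were below all wild-type sums.

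**Figure D2:**
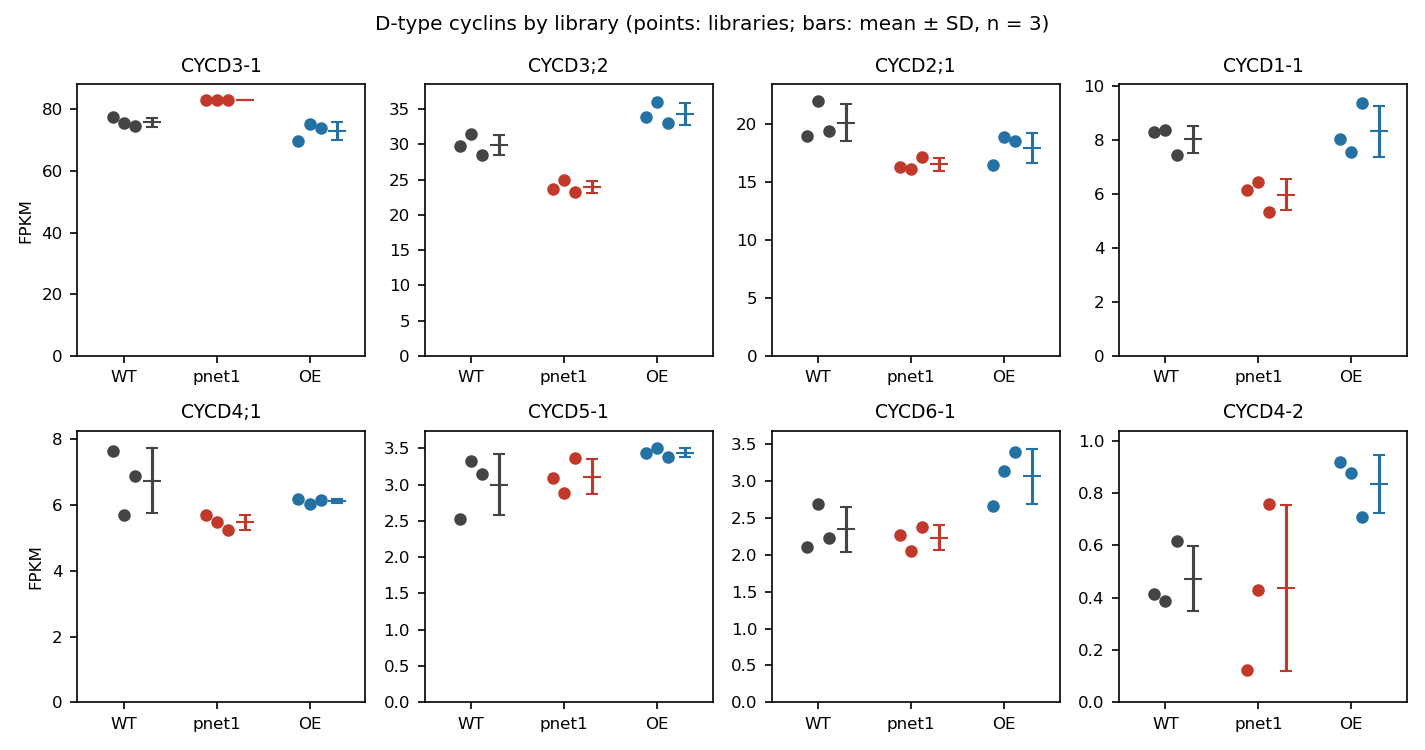
FPKM of the 8 tested D-type cyclins in each library (points) with mean ± SD (n = 3) for wild type (WT), pnet1 mutant (pnet1) and PNET1 overexpression (OE); each y axis starts at 0. The 3 mutant libraries of CYCD3;2 lie at 23.3 to 24.9 FPKM, below the 28.5 to 31.4 of wild type, while those of CYCD3-1 lie at 82.9 to 83.2, above the 74.5 to 77.4 of wild type.

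Markers of differentiating shoot cells were lower in the mutant as well. All 7 stomatal lineage markers (SPCH, MUTE, FAMA, TMM, EPF1, EPF2 and BASL) were lower in the mutant, with a summed level of 37.0 to 47.7 CPM in wild type, 13.9 to 19.1 in the mutant and 56.2 to 81.0 in the overexpression line. All 3 epidermis markers were lower in the mutant too, at 321.2 to 424.2, 147.3 to 182.5 and 469.2 to 608.1 CPM, as were all 3 mesophyll markers, at 1550 to 2046, 698.3 to 785.2 and 2061 to 2929 CPM in the same order. Each of these markers was called lower in the mutant, beside 17.4% of all tested genes. Of 3 shoot meristem markers CLV3 was called higher in both lines (1.44 in the mutant and 0.78 in overexpression callus, edgeR adjusted p = 1.7e-05 and 0.013) and STM and WUS were not called, and no marker of these 4 lists was at 0. The root meristem markers split in the mutant, with SHR called higher (0.61, edgeR adjusted p = 2.9e-06) and SCR lower (-0.97, edgeR adjusted p = 2.5e-05). The part of these tissues in the changes of the cyclins was not tested, and fewer cells of a type and less RNA per cell cannot be told apart in these bulk samples.

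A-type cyclins gave no call against wild type. edgeR called 0 of 6 in the mutant and 0 of 6 in the overexpression line, beside 30.0% and 11.2% of all tested genes. In each comparison 1 was at an unadjusted p under 0.05, and DESeq2 also called 0. With 6 genes, counts of 0 do not set the class apart from all genes. The class was led by CYCA3-2, an S-phase cyclin, at 21.8, 22.7 and 21.3 FPKM in wild type, 20.3, 20.7 and 19.4 in the mutant and 21.3, 21.7 and 21.0 in the overexpression line. Its mutant libraries were the lowest 3 of the 9, by a log2 fold change of -0.13 that did not pass (SE 0.06, edgeR adjusted p = 0.094). The next most abundant, CYCA3-4, averaged 11.4, 10.6 and 11.4 FPKM in the 3 genotypes, which overlapped.

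CYCA2-4, one of the A2 cyclins that pair with CDKB1 kinases and delay the switch to endoreduplication, was called between the lines. It was at 7.35, 6.74 and 7.64 FPKM in wild type, 6.56, 5.66 and 6.73 in the mutant and 8.32, 8.67 and 6.98 in the overexpression line. All overexpression libraries were above all mutant libraries, with a difference of 0.33 (SE 0.11, edgeR adjusted p = 0.015), and neither line was called against wild type. The call ended with the offset (edgeR adjusted p = 0.14) and without overexpression replicate 2 (0.079) or mutant replicate 2 (0.083). Its relative CYCA2-3, outside the 89, was likewise called between the lines (0.22, edgeR adjusted p = 0.018; with DESeq2 0.059, with the offset 0.14, and 0.057 to 0.075 without overexpression replicate 2 or 3 or mutant replicate 2) and at neither end against wild type. Summed FPKM of the class was 56.5 ± 2.80, 54.0 ± 1.42 and 57.1 ± 1.52 in wild type, mutant and overexpression line (SD, n = 3).

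B-type cyclins gave 3 calls among 8 in the mutant (37.5%, beside 30.0% of all tested genes), 2 lower and 1 higher. In the overexpression line edgeR called 0 of 8 (beside 11.2% of all tested genes), with 1 at an unadjusted p under 0.05, and DESeq2 called 0. CYCB1-1, the cyclin most used to mark cells at the entry to mitosis, was at 13.6, 12.5 and 11.5 FPKM in wild type, 9.07, 9.02 and 10.9 in the mutant and 12.9, 13.3 and 13.4 in the overexpression line. The highest mutant library was below the lowest of all others. CYCB1-1 fell by 0.38 on the log2 scale in the mutant (SE 0.09, edgeR adjusted p = 0.0034), with 0.06 in the overexpression line (edgeR adjusted p = 0.71), and was 0.44 higher in the overexpression line than in the mutant (edgeR adjusted p = 5.4e-04).

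CYCB1-2, the most abundant B cyclin here, was at 32.8, 32.5 and 32.8 FPKM in wild type, 30.6, 28.1 and 29.9 in the mutant and 34.4, 34.7 and 33.0 in the overexpression line. The mutant was again lowest without overlap. The fall of 0.15 (SE 0.05, edgeR adjusted p = 0.025) missed the threshold with DESeq2 (0.095), and with the GC and length offset it was -0.06 (0.38). It also missed with library totals in place of TMM scaling (0.058) and without mutant replicate 2 or 3 or any 1 wild-type library (edgeR adjusted p = 0.052 to 0.12). Between the lines it was 0.20 higher in the overexpression line (edgeR adjusted p = 0.0027, with the offset 0.17).

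CYCB1;5 went the other way. It was at 1.89, 1.41 and 1.23 FPKM in wild type, 2.30, 2.51 and 2.11 in the mutant and 1.86, 1.64 and 1.66 in the overexpression line. Mutant libraries were above all others, by 0.60 on the log2 scale against wild type, or 1.51-fold (SE 0.15, edgeR adjusted p = 0.0042), and the overexpression line was below the mutant by 0.43 (SE 0.14, edgeR adjusted p = 0.022; 0.053 to 0.091 without overexpression replicate 2 or 3 or mutant replicate 1 or 2). Counts of this pair carry an uncertainty, because 20.0% of the 32-base windows of CYCB1-2 also occur in CYCB1;5 and 9.2% of those of CYCB1;5 in CYCB1-2, with a further 14.9% between genes.

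The other 5 tested B cyclins, CYCB1-3, CYCB2-1, CYCB2-2, CYCB2-3 and CYCB2;4, had log2 fold changes between -0.10 and 0.04 in the mutant and between -0.20 and 0.02 in the overexpression line, and none was called in any comparison. CYCB1-3, the second most abundant, was at 16.2, 21.0 and 20.0 FPKM in wild type, 17.8, 18.6 and 18.2 in the mutant and 18.7, 15.5 and 15.6 in the overexpression line, and the genotypes overlapped. The 6 B cyclins with 3 or more MSA cores therefore include CYCB1-1 and CYCB1-2, which fell in the mutant, and 4 that were not called. Of all tested genes 17.4% were called lower in the mutant and 12.6% higher. CYCB1;5, which rose, has no core in the promoter printed above. The promoter of CYCB2;4, which was not called in the mutant (edgeR adjusted p = 0.99), has none either. Summed FPKM of the class was 114.8 ± 4.21, 108.9 ± 2.51 and 113.0 ± 1.24 in the 3 genotypes (SD, n = 3). CYCB1-4 and CYCB3;1, B cyclins outside the 89, were not called (-0.02 and 0.02 in the mutant).

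**Figure D3:**
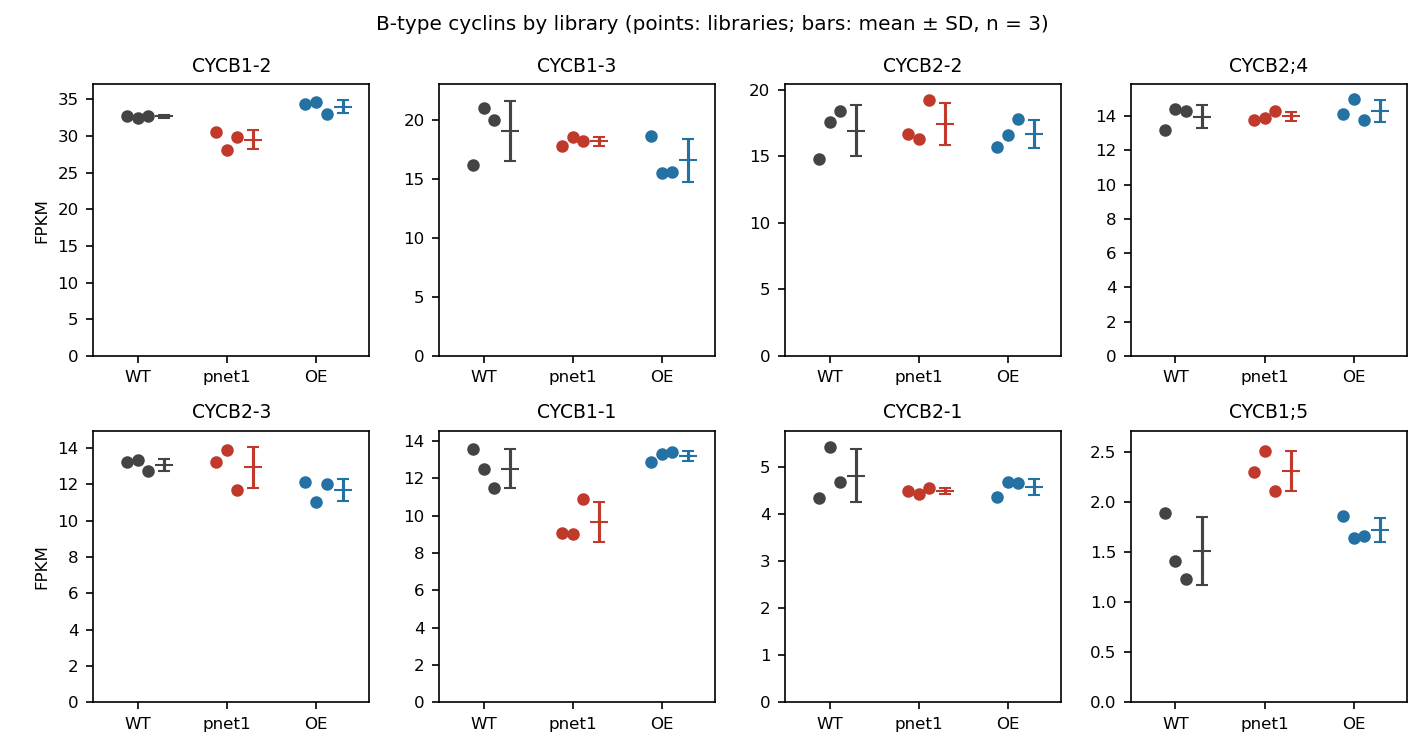
FPKM of the 8 tested B-type cyclins in each library (points) with mean ± SD (n = 3) for wild type (WT), pnet1 mutant (pnet1) and PNET1 overexpression (OE); each y axis starts at 0. CYCB1-1 is lowest in the mutant (9.02 to 10.9 FPKM) and CYCB1;5 is highest there (2.11 to 2.51 FPKM), and the genotypes overlap for CYCB2-1, CYCB2-2 and CYCB2;4.

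The main cell-cycle kinases gave no call in the mutant. CDKA-1, the kinase that pairs with D-type cyclins, was at 51.9, 54.0 and 56.7 FPKM in wild type, 55.3, 51.0 and 54.6 in the mutant and 51.9, 49.6 and 47.9 in the overexpression line. The mutant overlapped wild type (-0.02, edgeR adjusted p = 0.79), and the overexpression line was -0.13 against it (edgeR adjusted p = 0.11). CDKC-2, which acts on RNA polymerase II with T-type cyclins, ran from 31.2 to 34.4 FPKM over the 9 libraries and was not called in any comparison.

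CDKB2-2, a kinase needed for mitosis, was the 1 member lower in the overexpression line. It was at 28.7, 34.1 and 33.2 FPKM in wild type, 31.6, 33.6 and 36.8 in the mutant and 28.3, 26.4 and 25.0 in the overexpression line. The libraries of the overexpression line were the lowest 3, with replicate 1 close to wild-type replicate 1. The log2 fold change was -0.27 against wild type (SE 0.08, edgeR adjusted p = 0.029; 0.095 to 0.13 without overexpression replicate 2 or 3 or wild-type replicate 2 or 3) and -0.36 against the mutant (edgeR adjusted p = 9.9e-04). Its twin CDKB2-1, outside the 89, averaged 44.1, 43.3 and 42.8 FPKM and was not called, so that the ratio of CDKB2-2 to CDKB2-1 was 0.699 to 0.739 in wild type, 0.717 to 0.845 in the mutant and 0.568 to 0.654 in the overexpression line. CDKB1-1 and CDKB1-2 were not called in any comparison.

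CDKG1, a kinase tied to splicing and to meiotic chromosome pairing, rose in the mutant. It was at 30.0, 26.0 and 27.7 FPKM in wild type, 35.9, 35.6 and 33.4 in the mutant and 32.4, 29.2 and 29.6 in the overexpression line. All mutant libraries were above all others, by 0.32 against wild type (SE 0.06, edgeR adjusted p = 3.9e-04), and the overexpression line was 0.21 below the mutant (edgeR adjusted p = 0.0065). CDKD-3, a CDK-activating kinase, was lower in the overexpression line than in the mutant by 0.26 (edgeR adjusted p = 0.0086), at 12.0, 12.4 and 10.4 FPKM on average in wild type, mutant and overexpression line, and the libraries of the 2 lines did not overlap.

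The 2 largest changes among the kinases, in the mutant and between the lines, were in loci described as CDK-like that carry no CDK name. AT1G12330, described as a cyclin-dependent kinase-like protein, was at 8.33, 8.14 and 6.74 FPKM in wild type, 4.15, 4.22 and 4.02 in the mutant and 9.84, 9.95 and 12.3 in the overexpression line. The genotypes did not overlap, and the order was mutant, wild type, overexpression line. Its log2 fold change was -0.91 in the mutant (SE 0.11, edgeR adjusted p = 2.0e-05), 0.46 in overexpression callus (SE 0.10, edgeR adjusted p = 0.0089; 0.058 without wild-type or overexpression replicate 3) and 1.37, or 2.59-fold, between the lines (edgeR adjusted p = 4.2e-08).

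AT5G50860, described as cyclin-dependent protein kinase-like, was at 28.2, 26.4 and 25.8 FPKM in wild type, 19.4, 20.2 and 19.1 in the mutant and 27.2, 30.4 and 29.6 in the overexpression line. The mutant stood clear below the rest. It fell by 0.46 in the mutant (SE 0.05, edgeR adjusted p = 1.2e-05), with 0.11 in the overexpression line (edgeR adjusted p = 0.20) and 0.57 between the lines (edgeR adjusted p = 2.3e-07). Over the 11 kinases 3 were called in the mutant (1 higher, 2 lower), 2 in the overexpression line (1 and 1) and 5 between the lines (2 higher, 3 lower). These are 27.3%, 18.2% and 45.5% of the class, beside 30.0%, 11.2% and 43.5% of all tested genes. Summed FPKM was 249.3 ± 4.80, 245.9 ± 1.36 and 239.9 ± 0.205 (SD, n = 3).

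**Figure D4:**
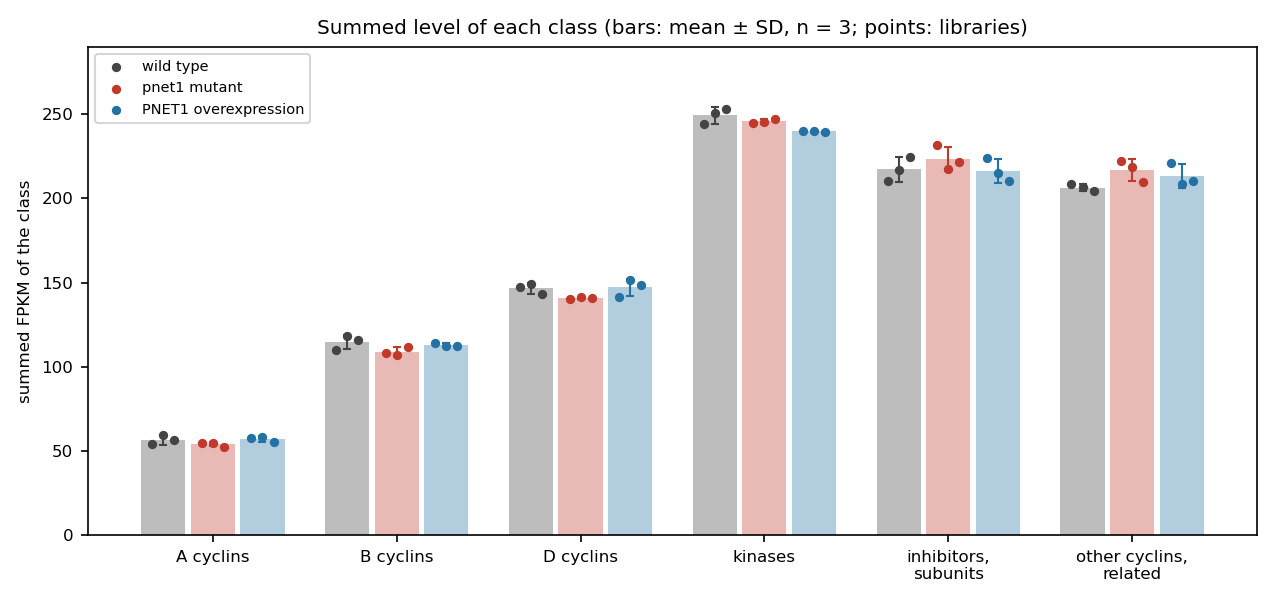
Summed FPKM of each class (bars: mean ± SD, n = 3; points: libraries) in wild type (grey), pnet1 mutant (red) and PNET1 overexpression (blue). Class totals stay close between genotypes, for example 146.5, 140.7 and 147.1 FPKM for the D-type cyclins and 249.3, 245.9 and 239.9 FPKM for the kinases.

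Of the 21 inhibitors and kinase subunits tested, 1 was called in mutant callus and 1 in overexpression callus (4.76% each, beside 30.0% and 11.2% of all tested genes). Between the lines 10 were called, 6 higher and 4 lower in the overexpression line, a share of 47.6% that is close to the 43.5% of all tested genes. The class median between the lines was 0.09. Higher were KRP1, KRP2, SMR2, SMR3, SMR7 and SMR13, and lower were SMR10, SMR12, SMR14 and CKS1.

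KRP2, an inhibitor of CDKA with a role in lateral root initiation, was the most abundant inhibitor and the 1 call of this class in the overexpression line. It was at 26.0, 23.3 and 24.8 FPKM in wild type, 21.9, 23.9 and 21.7 in the mutant and 30.8, 27.8 and 29.7 in the overexpression line. The overexpression line was above all other libraries, and the mutant overlapped wild type. The log2 fold change was 0.24 against wild type (SE 0.07, edgeR adjusted p = 0.031; with the offset 0.059, in a fit of the 2 groups alone 0.057, and 0.052 to 0.11 without wild-type replicate 2 or 3 or overexpression replicate 1 or 3) and 0.39 against the mutant (SE 0.07, edgeR adjusted p = 2.0e-04).

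KRP1 was at 2.32, 2.32 and 2.51 FPKM in wild type, 1.55, 1.70 and 2.19 in the mutant and 3.18, 3.51 and 2.72 in the overexpression line. The 3 genotypes did not overlap, and neither line passed against wild type (-0.40 and 0.38 on the log2 scale), while the difference between the lines did (0.78, SE 0.20, edgeR adjusted p = 0.0034). KRP3, outside the 89, averaged 7.90, 6.27 and 9.40 FPKM and fell in the mutant (-0.34, edgeR adjusted p = 0.025; with DESeq2 0.081, with the offset 0.096, and 0.058 to 0.11 without mutant replicate 1 or 3 or wild-type replicate 1 or 2), with 0.58 between the lines (edgeR adjusted p = 2.6e-04). KRP4, KRP5, KRP6 and KRP7 were not called in any comparison. Among the 9 members with 3 or more MSA cores, KRP1, KRP2, CYCB1-1 and CYCB1-2 were called higher in the overexpression line than in the mutant. The other 5 were not called. Of all tested genes 43.5% were called between the lines, 23.0% higher and 20.6% lower. The call of CYCB1-2 ended with the offset, as given above.

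Among the SMR genes SMR8 had 116 to 180 counts per library, whereas SMR3, SMR7, SMR9, SMR12 and SMR14 had 4 to 45. SMR13 was at 3.36, 2.52 and 2.93 FPKM in wild type, 3.03, 1.98 and 2.92 in the mutant and 4.54, 3.80 and 5.42 in overexpression callus, which was above all other libraries. It was higher than in the mutant by 0.79 (SE 0.21, edgeR adjusted p = 0.0045), with 0.63 against wild type (edgeR adjusted p = 0.052). SMR3 had 15, 16 and 13 counts in wild type, 9, 10 and 8 in the mutant and 20, 22 and 19 in the overexpression line, a difference between the lines of 1.13 in log2 units (SE 0.33, edgeR adjusted p = 0.0097). All its mutant libraries were thus below wild type and all its overexpression libraries above.

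SMR7, an inhibitor induced by DNA damage, had 31, 18 and 11 counts in wild type, 15, 4 and 12 in the mutant and 27, 31 and 21 in overexpression callus. Wild type overlapped both lines, and the 2 lines did not overlap each other (1.31, SE 0.42, edgeR adjusted p = 0.017; 0.072 without overexpression replicate 2 and 0.086 without mutant replicate 2). Opposite in direction, SMR12 had 16, 22 and 12 counts in wild type, 24, 15 and 25 in the mutant and 11, 8 and 9 in overexpression callus (-1.22 between the lines, SE 0.37, edgeR adjusted p = 0.011). SMR14 had 29, 26 and 34, then 45, 36 and 33, then 22, 21 and 25 counts in the same order (-0.78, SE 0.24, edgeR adjusted p = 0.014; 0.069 without mutant replicate 1). The inhibitors of this family thus did not move one way.

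SMR10 was the 1 call of this class in the mutant, at 2.44, 2.87 and 2.50 FPKM in wild type, 3.95, 3.77 and 3.80 in the mutant and 2.77, 2.83 and 2.22 in the overexpression line. The mutant lay above every other library (0.56, SE 0.18, edgeR adjusted p = 0.028), but the call ended with DESeq2 (0.075) and without any 1 mutant library or wild-type replicate 1 or 3 (edgeR adjusted p = 0.054 to 0.081). Between the lines it was -0.56 (edgeR adjusted p = 0.019), with 0.061 by DESeq2, 0.084 without overexpression replicate 3 and 0.050 without mutant replicate 1. SMR2 was higher by 0.64 (edgeR adjusted p = 0.033), with 0.064 by DESeq2, 0.12 with the offset and 0.088 to 0.11 without overexpression replicate 1 or 3 or mutant replicate 2 or 3. SIM, the founding member, which stops division in leaf hairs, was not called in any comparison (0.13 in mutant callus and 0.04 in overexpression callus).

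The CKS genes, which lie next to each other on chromosome 2, were the most abundant of the class. CKS2 was at 58.0, 72.0 and 68.5 FPKM in wild type, 73.2, 66.0 and 69.2 in the mutant and 65.3, 60.9 and 56.2 in the overexpression line, and was not called. CKS1 was at 54.0, 53.3 and 61.5 FPKM in wild type, 64.9, 61.3 and 60.5 in the mutant and 53.4, 53.2 and 51.4 in the overexpression line. Both lines overlapped wild type, and CKS1 was lower in the overexpression line than in the mutant by 0.24 (SE 0.06, edgeR adjusted p = 0.0028).

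**Figure D5:**
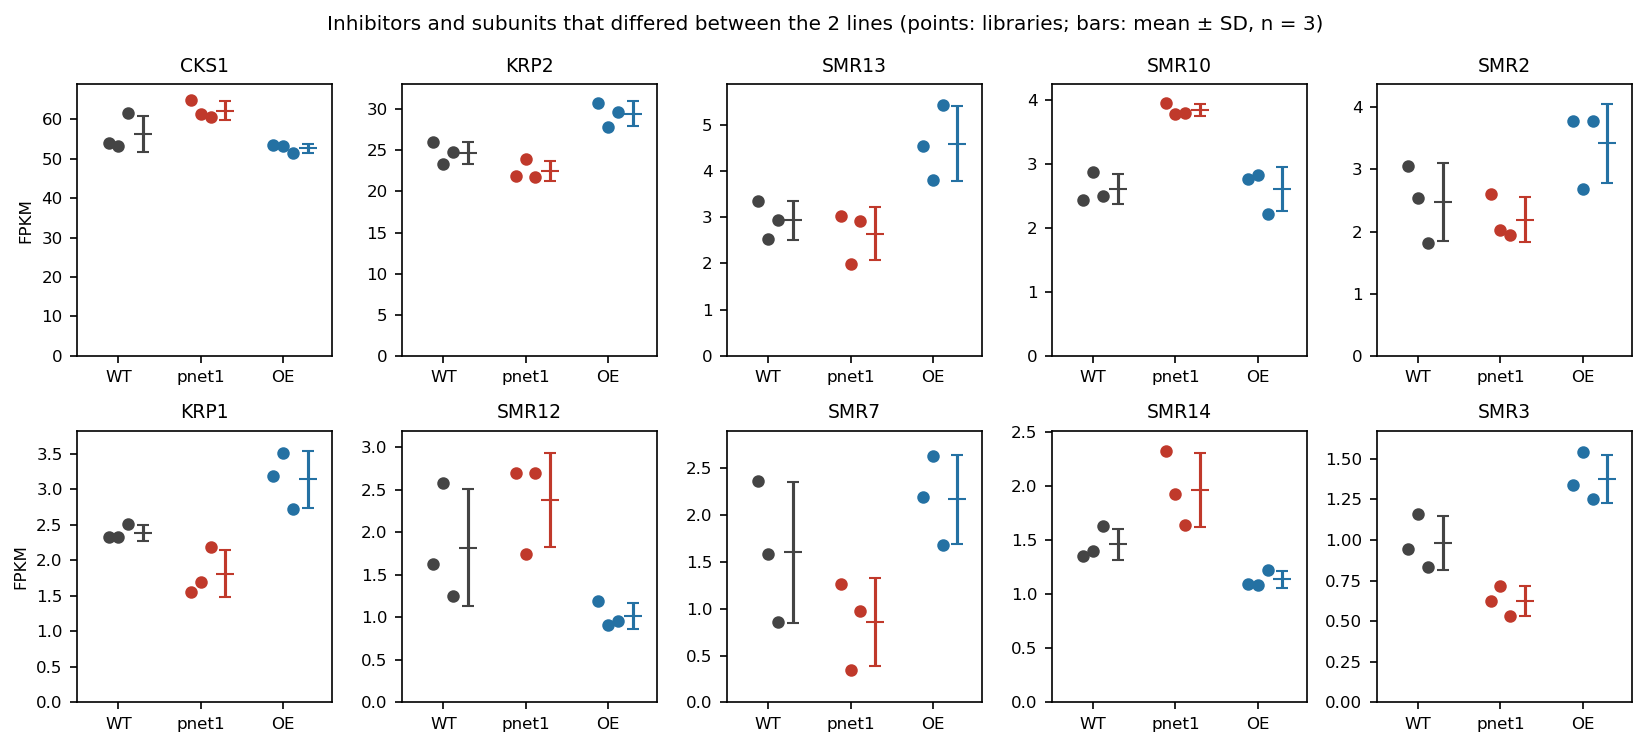
FPKM of the 10 inhibitors and kinase subunits called between the 2 lines, in each library (points) with mean ± SD (n = 3) for wild type (WT), pnet1 mutant (pnet1) and PNET1 overexpression (OE); each y axis starts at 0. KRP1, KRP2, SMR2, SMR3, SMR7 and SMR13 are higher in the overexpression line than in the mutant and CKS1, SMR10, SMR12 and SMR14 are lower.

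Among the 21 other tested members 1 rose and 1 fell in the mutant (9.52%, beside 30.0% of all tested genes). CYCU4-1, a U-type cyclin of a family first known from its likeness to a yeast phosphate-response cyclin, was at 3.92, 3.19 and 2.93 FPKM in wild type, 1.95, 2.01 and 1.22 in the mutant and 3.81, 4.02 and 2.73 in the overexpression line. All mutant libraries were below all others. The log2 fold change of -0.97 (SE 0.22, edgeR adjusted p = 0.0030) was the largest fall called in the mutant among the 75, and between the lines it was 1.03, or 2.04-fold (edgeR adjusted p = 1.0e-03).

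AT1G70620, described as a cyclin-like protein, was at 36.4, 32.9 and 33.3 FPKM in wild type, 42.3, 41.2 and 37.1 in the mutant and 42.4, 37.2 and 40.7 in the overexpression line. It was higher than wild type in both lines, by 0.23 (SE 0.06, edgeR adjusted p = 0.0096) in the mutant and 0.22 (SE 0.06, edgeR adjusted p = 0.029) in overexpression callus, which share the wild-type libraries. The first value had an edgeR adjusted p of 0.056 without mutant replicate 1, and the second of 0.099 to 0.12 without wild-type replicate 2 or 3 or overexpression replicate 3.

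CYCL1-1, a partner of splicing kinases, ran from 25.9 to 29.3 FPKM over the 9 libraries, and CYCH;1, the partner of the CDK-activating kinases, and the T-type cyclins CYCT1-2, CYCT1-3 and CYCT1-4 were not called in any comparison. CYCC1-1, the cyclin that goes with CDKE-1 in the Mediator complex, averaged 11.7, 12.3 and 9.88 FPKM in wild type, mutant and overexpression line and was lower in the overexpression line than in the mutant by 0.31 (SE 0.10, edgeR adjusted p = 0.015; 0.094 without overexpression replicate 3 and 0.068 without mutant replicate 1). AT5G45190, a cyclin family protein, was lower between the lines by 0.14 (edgeR adjusted p = 0.031, with DESeq2 0.13), and AT1G71150, a cyclin-D1-binding protein by description, was lower by 0.73 on 24 to 58 counts per library (edgeR adjusted p = 0.028, with DESeq2 0.054). SDS, a cyclin-like protein of meiosis, was higher by 0.44 (edgeR adjusted p = 0.032, with DESeq2 0.082) and AT2G23370, described as cyclin delta-3, by 0.27 (edgeR adjusted p = 0.030, with DESeq2 0.069). With the offset the difference of AT2G23370 was 0.12 (edgeR adjusted p = 0.27) and that of SDS 0.34 (0.074). These 4 calls also ended without single libraries of either line, at edgeR adjusted p of 0.051 to 0.14: AT5G45190 without overexpression replicate 1 or 2 or mutant replicate 1 or 2, AT1G71150 without overexpression replicate 1 or 3 or any mutant library, SDS without overexpression replicate 2 or 3 or mutant replicate 1 or 3, and AT2G23370 without overexpression replicate 2 or mutant replicate 2 or 3.

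Of the 89 members, 14 had too few counts to be tested. SMR5 and CYCT1-1 had no count in any library. For CYCT1-1 this allows at most 3 counts over the 9 libraries, counting error alone considered. All 266 bases of SMR5 lie under FTSH10 on the other strand, which had 1069 to 1373 counts per library, so its 0 sets no such limit while the strand setting of the counting is unknown. CYCA3-3, CYCB2-5, CYCU4-2, AT1G30455 and MEE65 had 1, 2, 3, 7 and 9 counts over all 9 libraries, AT3G57370, AT3G27185, CYCD7-1, SMR15 and CYCU4-3 had 11, 12, 14, 15 and 16, SMR16 had 31 and CYCU1-1 had 56. CYCA3-3 lies between the active genes CYCA3-2 and CYCA3-4 on chromosome 1, and CYCB2-5, with 49.1% of its windows also in CYCB2-3, lies 1 gene away from CYCB2-3 on the same chromosome.

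Of 36 further cell-cycle genes 35 were tested, and 3 rose and 2 fell in the mutant, 2 were called in the overexpression line, both higher, and 7 were higher and 6 lower between the lines. The shares called were 14.3%, 5.71% and 37.1%, beside 30.0%, 11.2% and 43.5% of all tested genes. Of the retinoblastoma-related protein RBR1 and the E2F and DP factors, 2 of 9 rose in the mutant, E2FB (0.29, edgeR adjusted p = 0.037) and DPB (0.24, edgeR adjusted p = 0.0094). The call of E2FB ended with DESeq2 (adjusted p = 0.11), with no filter (0.067) and without mutant replicate 1 or 2 or any 1 wild-type library (edgeR adjusted p = 0.062 to 0.12), and that of DPB without mutant replicate 1 (0.052) or wild-type replicate 2 (0.053). RBR1 was at 27.2, 28.0 and 27.2 FPKM on average in wild type, mutant and overexpression line. Of 4 MYB3R factors MYB3R5, a repressor of mitotic genes, rose in the mutant (0.39, edgeR adjusted p = 0.046). That call ended with DESeq2 (adjusted p = 0.092), with no filter (0.051) or the 5 CPM filter (0.055), and without any 1 mutant library or wild-type replicate 1 or 3 (edgeR adjusted p = 0.055 to 0.17). MYB3R1 was lower by 0.24 in the overexpression line than in the mutant (edgeR adjusted p = 0.0046). Among 7 activators and inhibitors of the anaphase-promoting complex, which marks mitotic cyclins for destruction, CDC20-1 rose in the overexpression line (0.25, edgeR adjusted p = 0.0052). Between the lines 3 of 7 were called, all higher in the overexpression line (42.9%, beside 23.0% of all tested genes called higher). They were CDC20-1 (0.33, edgeR adjusted p = 3.4e-05), CDC20-2 (0.29, 0.037) and CCS52B (0.17, 0.049). For CDC20-2 and CCS52B the libraries of the lines overlapped. Both calls ended with the offset (edgeR adjusted p = 0.22 and 0.96) and without single libraries (0.052 to 0.25). That of CCS52B also ended with DESeq2 (adjusted p = 0.10), with library totals (edgeR adjusted p = 0.066) and with upper-quartile scaling (0.053). That of CDC20-2 also ended with library totals (edgeR adjusted p = 0.051) and in a fit of the 2 groups alone (0.078).

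Of 12 genes of S phase and mitosis, KNOLLE, the syntaxin of the cell plate, fell in the mutant (-0.18, edgeR adjusted p = 0.015). The call ended with DESeq2 (adjusted p = 0.060), with the offset (-0.09, 0.22) and without mutant replicate 3 (0.074) or wild-type replicate 2 (0.088). The mitotic kinase gene AUR2 rose in the overexpression line (0.30, edgeR adjusted p = 0.049). This call ended with DESeq2 (adjusted p = 0.067), with the offset (0.056), in a fit of the 2 groups alone (0.069), and without overexpression replicate 2 or 3, mutant replicate 2 or 3 or wild-type replicate 1 or 3 (edgeR adjusted p = 0.056 to 0.22). The replication genes MCM5 and MCM2 were lower in the overexpression line than in the mutant by 0.19 and 0.14 (edgeR adjusted p = 0.0018 and 0.024), and AUR2, KNOLLE and MAP65-3 were higher. Of these 5 calls that of MCM2 ended with DESeq2 (adjusted p = 0.076) and without overexpression replicate 1 or 2 or mutant replicate 2 or 3 (edgeR adjusted p = 0.073 to 0.10). That of KNOLLE ended with the offset (0.087), and that of MAP65-3 with DESeq2 (0.090), with the offset (0.10) and without overexpression replicate 3 or mutant replicate 1 or 2 (0.12 to 0.14). For WEE1, the kinase that holds CDKs back, edgeR made no call in any comparison (-0.10 in mutant callus and 0.03 in overexpression callus).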

How the data were processed

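The authors deposited gene-level read counts with no scaling, and beside them the authors' FPKM. The submitters' processing notes name HISAT2 2.0.4, HTSeq 0.6.1p1 and the TAIR10 build. No source used here gives the annotation release, strand setting or filters. Gene positions in the tables equal those of the reference annotation for 32532 of 32548 identifiers and for 89 of 89 members. The mutant's 3 columns were taken to be replicates 1 to 3 of a single allele.

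Tests were run in R 4.3.3 with edgeR 4.0.16. After filterByExpr, with a smallest count of 10 and a smallest total of 15, there remained 19698 of 32833 genes. All 9 libraries entered 1 robust quasi-likelihood fit with TMM scaling and a mean per genotype, Benjamini-Hochberg adjustment ran over all genes tested, and SE is the standard error of the log2 fold change. Counting error falls as counts rise and is largest for the members with the fewest counts. Near 100 counts it is still not small beside the smaller called changes. The members and the gene lists were chosen with earlier results of these data known. Within a class, the called members with the smallest adjusted p (up to 8) and the 2 most abundant were named in full; SMR10 and SMR2 fall outside this rule and were named after their values were seen.

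Promoters were cut from the RefSeq genome, and shared 32-base windows of transcripts were counted in it. On simulated counts for 19552 genes, the fit recovered 46.3% of genes changed 1.25-fold, 70.1% at 1.5-fold and 93.9% at 2-fold in the mutant contrast, with 12 of 152 calls false, and 49.3%, 74.2% and 89.6% in the overexpression contrast, with 4 of 146 false. The changed genes were not drawn from those with the lowest counts, and the data gave 5908 and 2208 calls in these contrasts. The rates therefore need not hold for the members, least of all for those with few counts. Alternatives were RLE and upper-quartile scaling, library totals only, DESeq2 1.42.0, no filter, at least 5 CPM in 3 libraries, fits of the 2 groups compared, a replicate block, a GC and length offset with and without the block, and leaving out each library.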

Additional observations from a re-analysis of the deposited data

How the results depend on the processing

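Under every alternative named in the processing, no call of a member turned its direction. In the mutant 9 of the 14 calls passed in each alternative that tested them, in the overexpression line 0 of 5, and between the lines 16 of 29. Counts of called members were 10 to 15 in the mutant, 0 to 7 in the overexpression line, and 21 to 30 between the lines when 1 library was left out. In the overexpression line a fit of the 2 groups compared gave 3 calls in place of 5, where fewer samples share the estimate of the spread. A filter of at least 5 CPM in 3 libraries gave 16 calls in place of 29 between the lines, since members with low counts leave that fit by construction. All the other scalings, tools and filters stayed within 1.5 times the main counts. Same-numbered libraries did not deviate together (correlation -0.176 to 0.0768), so the numbers were not used to pair samples; with a replicate block the counts were 14, 5 and 29, and CDKB2-2 in the overexpression line had an edgeR adjusted p of 0.054. Of the pathway genes named, the block also ended the calls of MYB3R5 in the mutant (0.063) and AUR2 in the overexpression line (0.084). Between the lines it ended those of CCS52B (0.058) and MYB3R5 (0.055). With the block and the GC and length offset together, 11 members were higher and 7 lower in the mutant, 2 and 2 in overexpression callus and 11 and 23 between the lines. Depth limits CYCU1-1, CYCU2-2, AT3G05327, CYCD4-2, SMR3, SMR7, SMR9 and SMR12, with counts of 0 to 41 per library, and a p that misses the threshold there does not show equal levels.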

Other observations

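CYCU1-1, a U-type cyclin left out by the filter on low counts, had 10, 4 and 9 counts in wild type, 1, 3 and 0 in the mutant and 9, 8 and 12 in the overexpression line, so that each mutant library was below each of the others. It was not tested. CYCU4-1, of the same subfamily, was also lowest in the 3 mutant libraries, while CYCU2-1, CYCU2-2 and CYCU3-1 were not called in any comparison.

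AT3G05327, described as cyclin and picked after its values were seen, was at 0.357, 0.293 and 0.417 FPKM in wild type, 0.956, 0.465 and 0.703 in the mutant and 0.652, 0.566 and 0.589 in the overexpression line. Both lines were above every wild-type library, and neither comparison passed (log2 fold change 0.97, edgeR adjusted p = 0.085, and 0.73, edgeR adjusted p = 0.29).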
